A study of Mus musculus with 2 samples.

Results

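Saa3, Orm1, Lcn2, Lrg1 and Hp are 5 acute-phase genes of the 31053 genes counted in single bone marrow cells of the mouse. They were chosen by symbol because acute-phase transcripts were among the most different between the 2 libraries of the study, so the differences between libraries given here describe that choice and were not tested. Bone marrow-derived cells of C57BL/6 mice aged 6 months, with the disease label Atherosclerosis, were profiled with 10x Genomics 3′ single-cell chemistry. Both genotypes lacked Apoe by label, and the groups differed in Itgb3, the gene of integrin β3. Below, "null-labelled" stands for the library of Apoe(-/-), Itgb3(-/-) marrow, and "control-labelled" for that of Apoe(-/-), Itgb3(+/+) marrow, which carries the title Control. Each genotype was 1 library, the sources used here give no number of animals for either, and no difference between libraries has a replicate check, so genotype and library cannot be told apart.

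The acute phase is the early systemic response to infection or injury, in which interleukin-6, interleukin-1 and related cytokines act through STAT, C/EBP and NF-kB factors to change the output of plasma proteins, mainly from the liver. Some of these proteins are also made outside the liver. Neutrophil precursors make lipocalin-2 and haptoglobin for storage in granules before the cells leave the marrow, and Saa3 is the serum amyloid A gene of macrophages, adipocytes and epithelia in the mouse. Saa3 encodes a serum amyloid A, an apolipoprotein-like protein that attracts leukocytes. Orm1 encodes orosomucoid 1, a carrier of small lipophilic molecules. Lcn2 encodes lipocalin-2, which binds bacterial siderophores and so withholds iron. Lrg1 encodes leucine-rich alpha-2-glycoprotein 1, a secreted modulator of TGF-beta signalling, and Hp encodes haptoglobin, which binds free hemoglobin.

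After filters, the null-labelled library held 2903 cells with 33499181 unique molecular identifiers (UMIs, each standing for 1 captured transcript) and the control-labelled library 8595 cells with 59016542 UMIs. The median depth was 9311 and 4808 UMIs per cell. Cells were clustered and the sub-clusters named from marker genes, so each name is a rebuilt one and is written "-like". In the 8 classes with at least 100 cells in both libraries, every marker stood above the other classes of its library. The names were given by these same markers, so this largely follows from the naming and is no check of it. The libraries stood apart: 142 of 151 sub-clusters had 90% or more of their cells from 1 library, and the GMP-like (granulocyte-monocyte progenitor-like), neutrophil-like and monocyte-like classes lay almost entirely in different sub-clusters in the 2 libraries, while some erythroid-like sub-clusters held cells of both. They shared 11 barcodes, 6 of them among the cells kept. Itgb3 itself was counted at 7.43 CPM ( CPM: the gene's UMIs per 1000000 UMIs of the class) in the null-labelled library (95% interval 6.54 to 8.42) and, in the control-labelled one, at 23.6 CPM (22.3 to 24.8), and Apoe at 62.5 and 99.5 CPM. Which part of each gene was deleted is unstated in the sources used here, so 3′ counts do not check the deletions. Markers of a class also differed in level between the libraries. In monocyte-like cells Cx3cr1 was at 1.61 (null-labelled) against 111 CPM and Ccr2 at 194 against 919 CPM. Fcgr1 went the other way, at 317 against 36.0 CPM. In immature neutrophil-like cells Camp was at 37220 against 63164 CPM and Ngp at 65829 against 41313 CPM. Whether a class held like cells in both libraries was not tested. Class shares differed as well. Mature neutrophil-like cells made up 5.55% of the null-labelled and 16.6% of the control-labelled cells, and erythroid-like cells 32.5% and 23.3%. Values over all cells therefore depend on class shares as well as on levels within classes. Intervals are exact Poisson, or exact binomial for shares of cells and ratios of UMIs, and cover counting error only.

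The 5 genes lie on 5 chromosomes of mm10 in GENCODE vM21, all as protein-coding genes. Saa3 (ENSMUSG00000040026) spans chr7:46711998-46715700 on the minus strand, beside Saa4, Saa1 and Saa2. Orm1 (ENSMUSG00000039196) spans chr4:63344560-63348163 on the plus strand, followed by Orm3 and Orm2. Lcn2 (ENSMUSG00000026822) spans chr2:32384633-32388252, Lrg1 (ENSMUSG00000037095) chr17:56119678-56122001 and Hp (ENSMUSG00000031722) chr8:109575128-109579172, all on the minus strand. RefSeq promoter sequence (GRCm38.p6) was at hand for Saa3, Lcn2 and Lrg1, and not for Orm1 or Hp. The stretch before the first exon is shown for Saa3 and Lrg1, since over all cells they had the largest and the smallest ratio between the libraries of the 5 genes. Capitals mark matches, on either strand, to a C/EBP motif (TTNNGNAA) or an interferon-stimulated response element (GAAANNGAA), and both sequences are written 5′ to 3′ on the gene's strand.
Saa3, chr7:46715701-46715926, minus strand: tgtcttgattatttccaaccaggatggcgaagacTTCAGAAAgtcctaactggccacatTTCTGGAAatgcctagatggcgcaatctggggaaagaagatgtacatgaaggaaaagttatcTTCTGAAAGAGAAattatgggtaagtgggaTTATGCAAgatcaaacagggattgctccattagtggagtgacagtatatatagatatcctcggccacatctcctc
Lrg1, chr17:56122002-56122196, minus strand: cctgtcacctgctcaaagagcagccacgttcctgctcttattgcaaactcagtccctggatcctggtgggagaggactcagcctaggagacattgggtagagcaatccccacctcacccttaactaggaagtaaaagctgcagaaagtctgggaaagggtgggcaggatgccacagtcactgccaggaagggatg
Counted from the RefSeq start, the Saa3 sequence held C/EBP matches at -216 to -209, -191 to -184, -129 to -122 and -99 to -92. Its interferon-stimulated response element match at -125 to -117 overlaps the third of these, so both are in 1 run of capitals. Lcn2 had 1 C/EBP match, at -216 to -209, and Lrg1 had none in its 250 bases. Of 32851 promoters, 36.9% held a C/EBP match, 7.13% an interferon-stimulated response element match, 7.02% a STAT match (TTCNNNGAA), 3.90% the NF-kB consensus and 12.4% a TATA box (TATAAA). No match to the last 3 was found in the 250-base windows of these 3 genes. Of the Lcn2 window, which is not shown, 197 bases lie in an exon of GENCODE vM21, against 24 for Saa3 and 55 for Lrg1. The Lcn2 window is thus mostly not sequence upstream of the annotated gene. The matches are descriptions of the letters, and a window without one says nothing of a factor.

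Saa3 was highest in monocyte-like cells of the null-labelled library, followed by GMP-like cells, and was close to 0 in the control-labelled library. Over all cells it was counted 89267 times (2665 CPM) in the null-labelled library and 15 times (0.254 CPM) in the control-labelled library, a ratio of 10484 (6356 to 18733). Monocyte-like cells, 143 in the null-labelled library, held 78.5% of these UMIs. Their level was 22522 CPM (22356 to 22690), against 6 UMIs (1.16 CPM) in 564 control-labelled monocyte-like cells, a ratio of 19483 (8951 to 53090).

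Almost every null-labelled monocyte-like cell carried the transcript: 137 of 143 (95.8%) had a Saa3 UMI. Thinned to 1000 UMIs per cell, 90.2% still did, against 0 of 560 control-labelled cells, which allows a share of up to 0.657%. The level varied widely among the cells, from 1351 CPM at the 10th percentile through a median of 20436 CPM to 70620 CPM at the 90th. Of the 143 cells, 94 reached 10000 CPM. The class lay in 3 sub-clusters in the null-labelled library. The 56 cells of sub-cluster 12.0, with the lowest Csf1r (the receptor of the monocyte growth factor, 57.6 CPM) and some Mpo (myeloperoxidase, a progenitor granule enzyme, 592 CPM), were at 10213 CPM of Saa3. The 36 cells of sub-cluster 12.1 (Csf1r 119 CPM) were at 34074 CPM and the 51 cells of sub-cluster 12.3 (Csf1r 264 CPM) at 47439 CPM, so over these 3 sub-clusters Saa3 and Csf1r stood in the same order. Control-labelled monocyte-like cells lay in sub-clusters 19.0, 19.3, 19.4 and 33.0 to 33.4.

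GMP-like cells came next, at 2923 CPM (2865 to 2982), with 105 of 109 cells carrying the transcript. The control-labelled class held 5 UMIs in 425 cells (0.594 CPM). The 37 null-labelled macrophage-like cells were at 2797 CPM, with an interval overlapping that of the GMP-like cells, and 29.7% of them had a Saa3 UMI. These 37 cells held 56846 UMIs in all, against 3315378 in the 109 GMP-like cells. Their shares of positive cells are thus not at a like depth. Control-labelled macrophage-like cells had 0 UMIs in 187 cells. Stem and progenitor-like cells were lower, at 106 CPM (91.2 to 122) in 66 null-labelled cells, against 1 UMI in 86 control-labelled cells.

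In neutrophil-like cells Saa3 was lower and unevenly spread. Immature neutrophil-like cells were at 1134 CPM (1106 to 1161), with 212 of 429 cells positive, and mature neutrophil-like cells at 1138 CPM (1076 to 1204), with 37 of 161 positive, so the summed levels did not differ beyond counting error while the share of positive cells did. In the mature class the 10% of cells with the most Saa3 held 97.4% of its UMIs, and in the immature class 65.4%. The control-labelled library had 1 UMI in 1183 immature cells and 0 in 1429 mature cells. Against a floor of 3 UMIs over the class, the null-labelled mature class was 1519-fold higher, and the lower bound of the interval of the ratio was 1233. Erythroid-like, B precursor-like, mature B-like and T-like cells, which serve here as the view of free RNA in the library, were at 18.9, 12.6, 10.9 and 24.8 CPM in the null-labelled library, and after thinning 0.87% to 2.24% of these cells had a UMI. The thinned shares of 90.2% in monocyte-like, 82.6% in GMP-like, 31.3% in immature and 13.8% (8.88 to 20.2) in mature neutrophil-like cells were above those, T-like cells having the highest of them (0.464% to 6.40%).

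**Figure D1:**
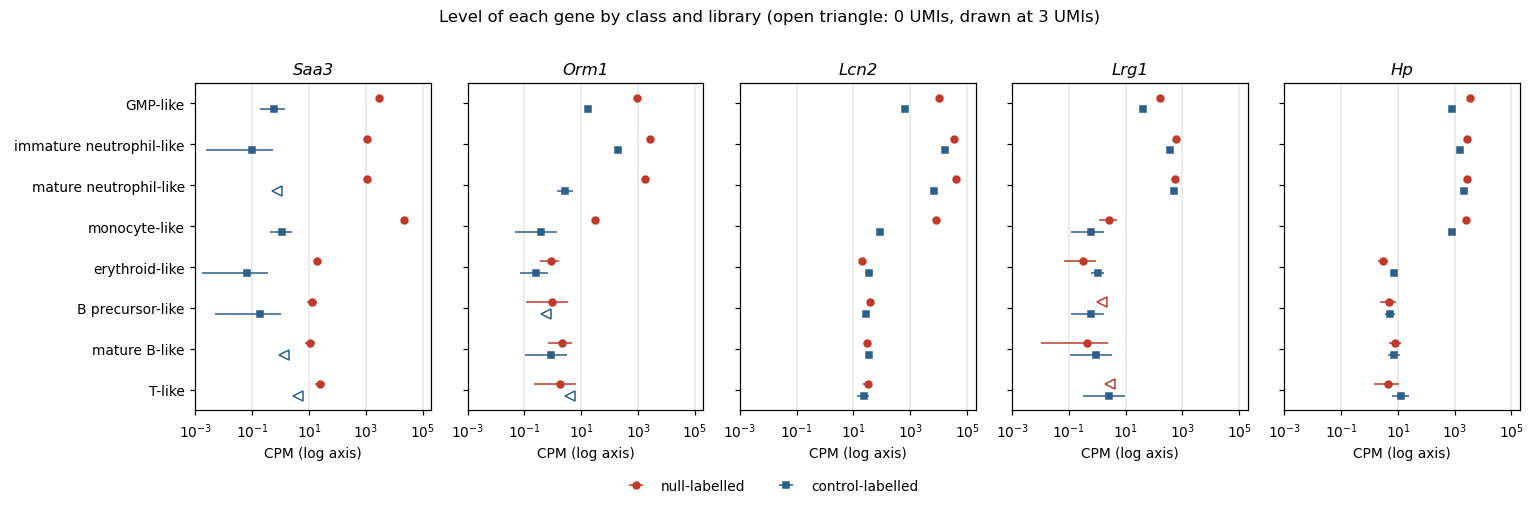
Level of each of the 5 genes (CPM, log axis) in 8 classes of the null-labelled (circles) and control-labelled (squares) library, with 95% Poisson intervals that are often smaller than the symbol. Saa3 stood at 22522 CPM in null-labelled monocyte-like cells and at 1.16 CPM in control-labelled ones, while the lymphoid and erythroid classes of the null-labelled library lay between 10.9 and 24.8 CPM.

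Orm1 was a transcript of neutrophil-like cells in both libraries, higher in the null-labelled one at every stage. Immature neutrophil-like cells held 75.0% of its UMIs in the null-labelled library and 91.9% in the control-labelled library. Their level was 2589.6 CPM (2548 to 2631) against 192 CPM (184 to 201), a ratio of 13.5 (12.9 to 14.1). Nearly all null-labelled immature cells were positive, 416 of 429, against 674 of 1183 control-labelled cells, and the median cell was at 2305 against 97.9 CPM. Thinned to 1000 UMIs per cell, the shares were 84.1% and 16.0%.

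The stages differed in how far the libraries were apart for Orm1. In mature neutrophil-like cells it was at 1798 CPM (1719 to 1880) in the null-labelled library and at 2.75 CPM, from 11 UMIs in 1429 cells, in the control-labelled library, a ratio of 654 (365 to 1313). The mature class thus stood nearer to the immature class in the null-labelled library than in the control-labelled library. The mature classes of the libraries lay in different sub-clusters, and change over maturation was not tested. GMP-like cells were at 895 against 17.1 CPM, a ratio of 52.4 (44.3 to 62.3). In null-labelled monocyte-like cells Orm1 was at 30.2 CPM, and 77 of its 94 UMIs there lay in 1 cell. The lymphoid and erythroid classes of both libraries were at or below 2.10 CPM.

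Lcn2 was a transcript of all neutrophil stages in both libraries and, in the null-labelled library, also of monocyte-like cells. Over all cells it was at 9387 CPM against 3864 CPM, a ratio of 2.43 (2.42 to 2.44). In the null-labelled library it took 41253 CPM (40871 to 41638) of mature neutrophil-like cells, with all 161 positive, and 36123 CPM (35969 to 36278) of immature ones. In the control-labelled library the order of these classes was the other way round, 6954 CPM (6873 to 7037) in mature and 16781 CPM (16703 to 16860) in immature cells. The ratios between libraries were thus 5.93 (5.84 to 6.02) in mature and 2.15 (2.14 to 2.17) in immature cells. Single mature cells ranged from 24747 CPM at the 10th to 55776 CPM at the 90th percentile in the null-labelled library, and from 0 to 12628 CPM in the control-labelled library.

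Among the classes compared, monocyte-like cells showed the widest Lcn2 gap, 7813 CPM (7716 to 7912) against 85.7 CPM (78.0 to 94.1), a ratio of 91.1 (83.0 to 100.3). A Lcn2 UMI was found in 137 of 143 null-labelled and 180 of 564 control-labelled monocyte-like cells, and after thinning in 93.0% and 6.43%. Without doublet removal the ratio was lower, a log2 ratio of 5.03 in place of 6.51. GMP-like cells were at 10436 against 673 CPM, a ratio of 15.5 (15.1 to 15.9). Lymphoid and erythroid cells were low in both libraries, at 20.3 to 37.4 CPM (null-labelled) and 22.6 to 35.7 CPM (control-labelled). In erythroid-like cells Lcn2 was 1.75-fold lower (1.49 to 2.08) in the null-labelled library, a log2 ratio of -0.81 that turned to 0.48 under TMM scaling (edgeR's trimmed mean of M-values) and to 0.49 with per-cell marker names.

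Hp was spread over GMP-like, neutrophil-like and monocyte-like cells in both libraries, with smaller ratios. It was at 3539.6 CPM (3476 to 3604) against 780.4 CPM in GMP-like cells, a ratio of 4.54 (4.40 to 4.68). In monocyte-like cells it was at 2581 against 825 CPM, a ratio of 3.13 (3.01 to 3.25), with 97.9% and 86.5% of cells positive. Immature neutrophil-like cells were at 2617 against 1524 CPM, a ratio of 1.72 (1.68 to 1.76). For mature ones Hp was at 2625 against 2073 CPM, a ratio of 1.27 (1.21 to 1.32), which under TMM scaling turned to a log2 ratio of -0.05. The null-labelled levels of the neutrophil and monocyte classes had overlapping intervals, whereas in the control-labelled library Hp stood, among these classes, in the order mature neutrophil-like, immature neutrophil-like, monocyte-like, GMP-like, each apart beyond counting error.

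Lrg1 differed least of the 5 genes. Over all cells it was at 134 CPM against 118 CPM, a ratio of 1.14 (1.10 to 1.19), but the log2 ratio of 0.19 turned to -0.27 as a mean over cells and to -0.13 with cells thinned to 1000 UMIs. Immature neutrophil-like cells were at 581 CPM (562 to 601) against 362 CPM (350 to 374), a ratio of 1.61 (1.53 to 1.68). In mature neutrophil-like cells the levels were 543 CPM (499.6 to 589) and 508 CPM (487 to 531), a ratio of 1.07 whose interval of 0.972 to 1.17 includes 1, and under TMM scaling the log2 ratio was -0.30. Monocyte-like cells had 8 and 3 Lrg1 UMIs in all. In GMP-like cells Lrg1 was at 157 against 40.6 CPM, a ratio of 3.87 (3.37 to 4.45).

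The GMP-like values of Orm1, Lcn2 and Lrg1 rested on sub-clusters that also held neutrophil markers. The null-labelled class was made of sub-cluster 7.0, with 74 of its 109 cells, sub-cluster 7.3, with 34, and 1 cell elsewhere. Sub-cluster 7.0 had 799 CPM of Mpo and 23882 CPM of Camp, the cathelicidin gene of immature neutrophils, while sub-cluster 7.3 had 2983 CPM of Mpo and 14.8 CPM of Camp. Saa3 was at 3465 CPM in the first and 2256 CPM in the second, and Hp at 4256 and 2656 CPM. Orm1 was at 1609 and 13.5 CPM, Lcn2 at 17555 and 1645 CPM and Lrg1 at 276 and 10.1 CPM. Without sub-clusters of that mixed kind in either library, which left 35 and 366 cells, the levels were 2254 against 0.410 CPM for Saa3, 1645 against 156 CPM for Lcn2 and 2654 against 657 CPM for Hp. For Orm1 they were then 13.5 against 6.70 CPM, and for Lrg1 10.1 against 18.7 CPM, which is the opposite direction. The control-labelled GMP-like cells lay in sub-clusters 18.0 to 18.4, 19.1 and 19.2.

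**Figure D2:**
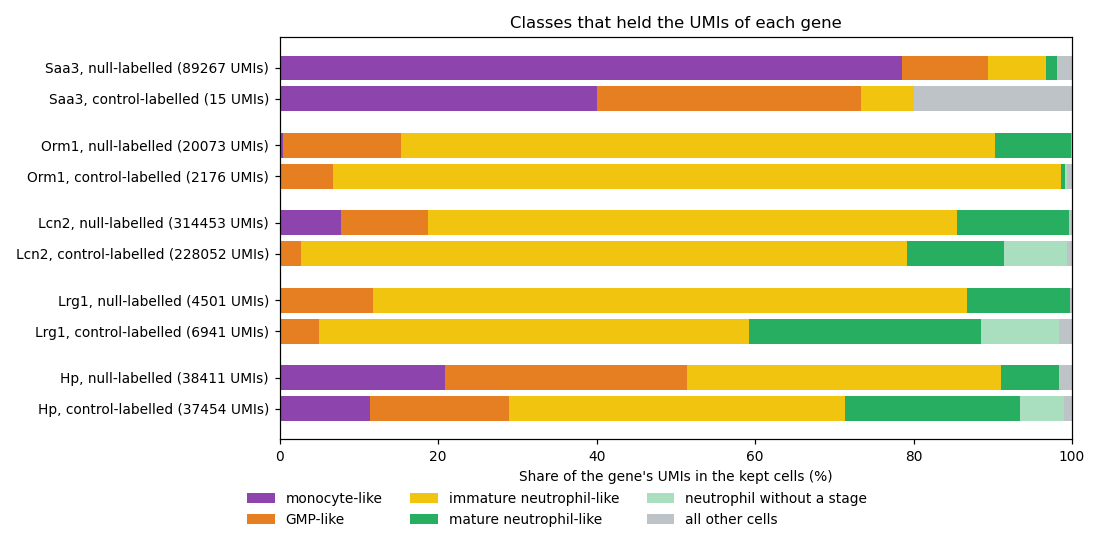
Share of each gene's UMIs (percent of its UMIs in the kept cells) by class, 1 bar per gene and library, with the number of UMIs beside each bar. Null-labelled Saa3 lay mostly in monocyte-like cells (78.5%), while Orm1 lay mostly in immature neutrophil-like cells in both libraries (75.0% and 91.9%).

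Neutrophil stages were also followed over sub-clusters, since the 2 libraries held the mature class in different ones. Null-labelled mature cells lay in sub-clusters 3.0 and 3.1, with 9472 and 12826 CPM of Camp and 379 and 339 CPM of Cxcr2, the chemokine receptor of mature neutrophils. Control-labelled mature cells lay in 10 sub-clusters, with 41.7 to 9086 CPM of Camp and 381 to 2423 CPM of Cxcr2, so their range reached later stages by these markers. The control-labelled sub-cluster with the most Camp in that class, 26.2 (9086 CPM), was at 4.20 CPM of Orm1 and 11381 CPM of Lcn2. The null-labelled sub-cluster 3.0, at a like level of Camp, was at 1559 and 41572 CPM. Camp itself differed between the libraries in immature neutrophil-like cells (37220 against 63164 CPM), so a like level of it need not mean a like stage. Sub-cluster 24.3, control-labelled neutrophils without a stage name (261 cells), had 23117 CPM of Camp with 4.93 CPM of Orm1 and 14963 CPM of Lcn2.

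Among immature neutrophil-like cells, the null-labelled sub-clusters were 7.1, 7.2, 7.4, 7.5, 3.2 and 3.3, and the control-labelled ones fell in groups 24, 25 and 27. Across the null-labelled 6, Orm1 lay between 1676 and 3022 CPM and Lcn2 between 27823 and 40159 CPM. Across the control-labelled ones, Orm1 lay between 0 and 324 CPM and Lcn2 between 9167 and 21587 CPM. Lrg1 lay between 294 and 996 CPM in the null-labelled and between 176 and 576 CPM in the control-labelled sub-clusters. How often the ranges of other genes were apart between the libraries was not counted. Among the null-labelled 6, Saa3 was highest in sub-cluster 7.5, the earliest by the stage markers, at 2967 CPM, lay between 857 and 1351 CPM in 7.1, 7.2 and 7.4, and was lowest in the 2 latest, 3.2 and 3.3, at 476 and 704 CPM.

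**Figure D3:**
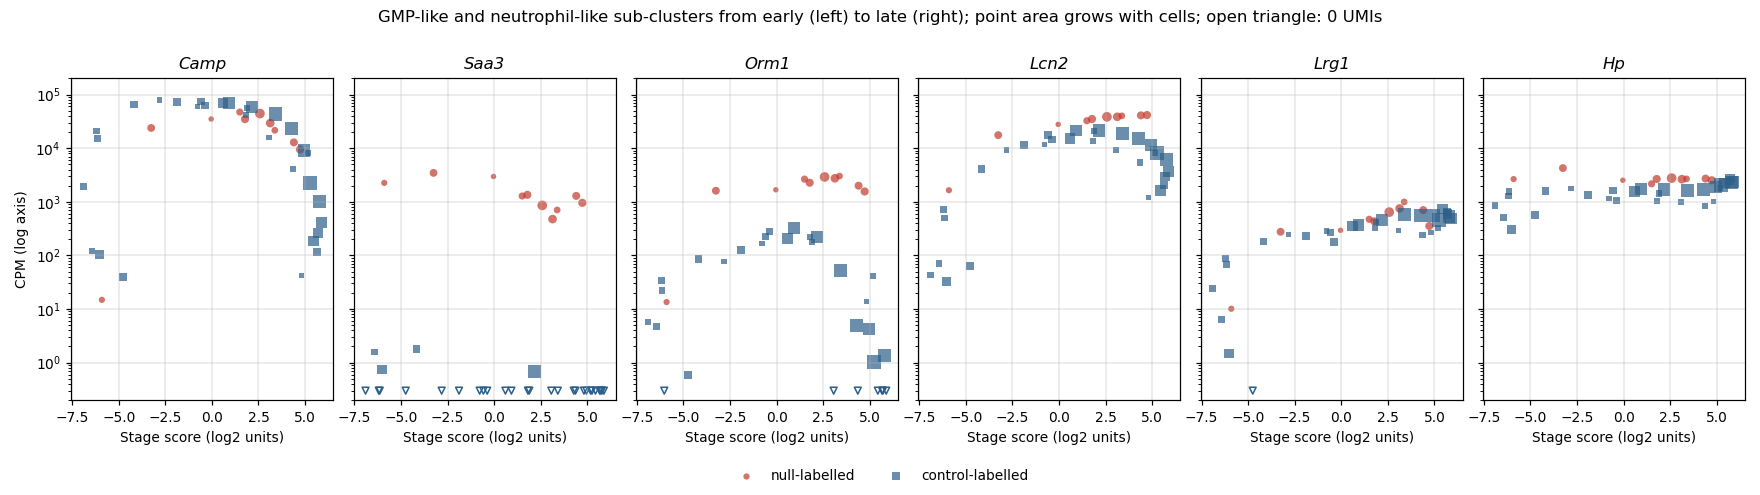
Level (CPM, log axis) of Camp and of the 5 genes in GMP-like and neutrophil-like sub-clusters against a stage score, the mean log2 level of mature neutrophil markers minus that of GMP markers. Control-labelled Orm1 (squares) stood at up to 324 CPM at the middle stages and at or under 41.2 CPM in the mature sub-clusters, while null-labelled mature sub-clusters (circles) were at 1559 and 1998 CPM.

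Read against all genes, Saa3 and Orm1 lay above the 95th percentile of log2 ratios in each class where they were compared, while Lrg1 and Hp did so in GMP-like cells and not elsewhere. A gene was compared if its level reached 50 CPM in at least 1 of the libraries and its UMIs summed to 30, and counted as apart at 2-fold or more. Over all cells 3 of 5 genes (Saa3, Orm1, Lcn2) were 2-fold higher in the null-labelled library, beside 7.81% of 2714 genes, while 12.1% of genes were 2-fold lower. In GMP-like cells all 5 were, beside 7.54% (11.5% lower), or 4 with per-cell marker names and with each library clustered on its own. Without the mixed sub-clusters the log2 ratio of Orm1 was 1.01. The 95th percentile of the whole GMP-like class, those sub-clusters included, was 1.48, and no percentile was computed without them. Without them Orm1 and Lrg1 were under 50 CPM in both libraries, and Saa3, Lcn2 and Hp were left, each 2-fold higher. In immature neutrophil-like cells 3 of 5 were, beside 11.8% (11.6% lower), and in mature neutrophil-like cells 3 of 5, beside 24.5% (14.4% lower). In monocyte-like cells all 3 that reached 50 CPM, Saa3, Lcn2 and Hp, were, beside 13.2% (16% lower). None of the 5 was 2-fold lower where it was compared, although without doublet removal Lcn2 was in erythroid-like cells (log2 ratio -2.69) and Lcn2 and Hp were in T-like cells (-3.20 and -4.30). None reached 50 CPM in erythroid-like, B precursor-like, mature B-like or T-like cells. These counts follow from how the genes were chosen.

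In log2 ratio the median of the compared genes of the 5 was 1.28 over all cells, 3.95 in GMP-like, 1.11 and 2.57 in immature and mature neutrophil-like cells, and 6.51 in monocyte-like cells. The medians of all genes there were -0.25, -0.25, -0.06, 0.21 and -0.14, and with TMM scaling -0.05, -0.03, 0.02, -0.19 and -0.02. Lcn2 lay inside the 5th to 95th percentile of all genes over all cells (-1.35 to 1.54), in immature (-1.49 to 2.01) and in mature neutrophil-like cells (-1.99 to 3.05). TMM scaling turned the split of all genes in mature neutrophil-like cells from 596 higher and 351 lower to 393 and 583, over all cells from 212 and 329 to 258 and 208, in GMP-like cells from 203 and 309 to 275 and 191, and in monocyte-like cells from 453 and 552 to 527 and 459.

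**Figure D4:**
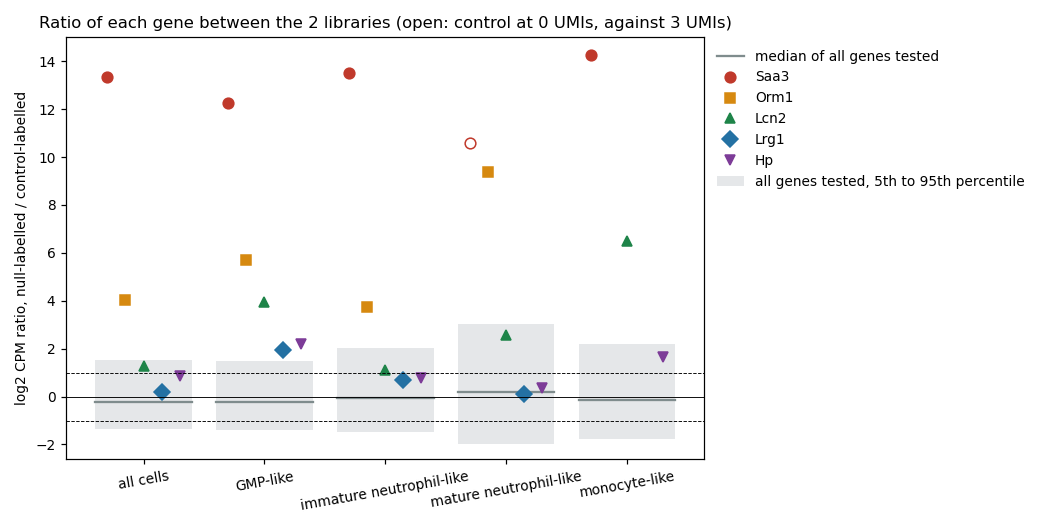
Log2 CPM ratio (null-labelled over control-labelled) of each gene with 50 CPM or more in either library, beside the 5th to 95th percentile (grey bar) and median (grey line) of all genes compared. Saa3 lay between 10.57 and 14.25 and outside the bar in all 5 columns, while Lrg1, not compared in monocyte-like cells, lay inside it in the other columns but that of GMP-like cells, where its direction turned without the mixed sub-clusters.

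Many null-labelled cells carried several of the 5 transcripts. In the null-labelled library 66 of 109 GMP-like cells, 192 of 429 immature and 32 of 161 mature neutrophil-like cells carried all 5 transcripts, while in the control-labelled library 0 of 425, 1 of 1183 and 0 of 1429 did, where Saa3 had 15 UMIs in all cells together and the depth per cell was lower. Of control-labelled cells, 610 of 1183 immature neutrophil-like and 52 of 425 GMP-like ones carried 4 of the 5. The 5 genes together made up 4.74% of the UMIs of mature neutrophil-like cells against 0.954%, 4.30% against 1.89% in immature cells, 3.30% against 0.0913% in monocyte-like cells and 1.80% against 0.151% in GMP-like cells. Within null-labelled classes the rank correlations over cells were mostly weak for Saa3. Saa3 with Lcn2 was at 0.41 in monocyte-like, 0.20 in GMP-like, 0.04 in immature and -0.03 in mature neutrophil-like cells. Lcn2 with Hp was at 0.49, 0.19, 0.34 and 0.35 in the same order, and Orm1 with Lcn2 at 0.83 in GMP-like cells, which include the mixed sub-cluster. These values are over cells of 1 library.

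The proportion of Saa3 to Lcn2 varied over the classes. There were 2.88 Saa3 UMIs for each Lcn2 UMI in null-labelled monocyte-like cells and 2.56 in macrophage-like cells (159 and 62 UMIs). The number was 0.280 in GMP-like, 0.0314 in immature and 0.0276 in mature neutrophil-like cells. Barcodes with under 200 genes had 0.413, with Saa3 at 6.83 CPM. The 1202 of them in the null-labelled library held 9664065 UMIs in all, so they are not empty barcodes and give no level of free RNA. B precursor-like cells had 0.338 (27 and 80 UMIs), mature B-like cells 0.377 (26 and 69) and NK-like cells 0.455 (5 and 11). T-like cells had 0.771 (27 and 35), erythroid-like cells 0.928 (180 and 194) and stem and progenitor-like cells 1.16 (187 and 161). No intervals were computed for these proportions, so the order of the low classes was not tested against counting error.

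**Figure D5:**
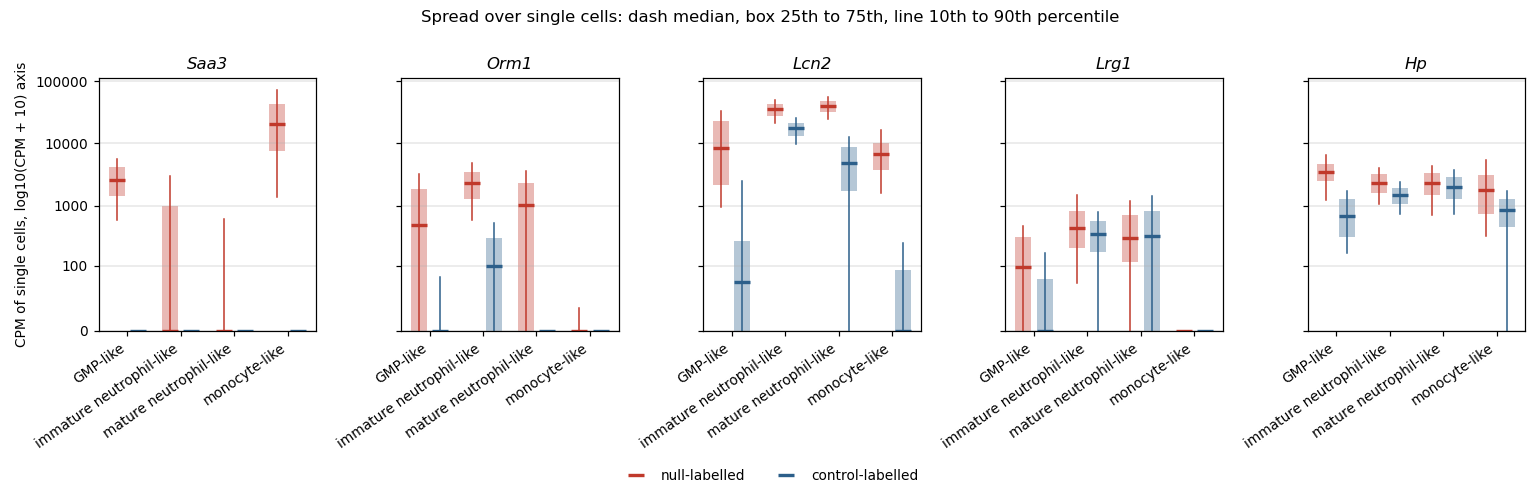
Spread of single-cell levels (CPM on a log10(CPM + 10) axis) in 4 classes of both libraries, with the median as a dash, the 25th to 75th percentile as a box and the 10th to 90th as a line. Null-labelled monocyte-like cells had a median of 20436 CPM of Saa3 with a 10th percentile of 1351 CPM, and control-labelled medians of Saa3 were 0 in all 4 classes.

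The close relatives of Saa3 and Orm1 were nearly uncounted. Saa1 had 57 UMIs in the null-labelled library, 52 of them in monocyte-like cells, and 0 in the control-labelled library. Saa2 had 3 and 0, Saa4 0 and 0, Orm2 3 and 1, and Orm3 4 and 2 UMIs. Of the 50-base windows in the last 500 bases of the Orm1 transcript, 32.6% also occur in Orm2 or Orm3. Orm1 counts thus depend on how shared reads were counted. The share is one of windows and gives no share of UMIs. For Saa3 the share was 2.00%, with Saa1, and for Lcn2, Lrg1 and Hp it was 0.

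Of 25 other acute-phase genes, few were expressed strongly enough to compare, and the serpins among them stood out. Serpina3g, a serine protease inhibitor of leukocytes, was at 255 CPM against 5.51 CPM over all cells, a ratio of 46.3 (41.5 to 51.9), and in monocyte-like cells at 358 CPM against 2 UMIs (0.385 CPM; ratio 930, 257 to 7690). Serpina3f, of the same family, was at 99.4 against 1.07 CPM, a ratio of 93.1 (72.6 to 121). In GMP-like cells it was 433-fold above the floor of 3 UMIs of the control-labelled class, which had 0 UMIs. In monocyte-like cells 5 of the 6 compared were 2-fold higher (Serpina3g, Slpi, and, named after their values were seen, Cp, Cfb and Il1rn), with a median log2 ratio of 6.91. In GMP-like cells 4 of 6 were (Serpina3g, Serpina3f, Slpi and, likewise, Chil1), with a median of 2.24, and in mature neutrophil-like cells 3 of 5 (Ltf and, likewise, C3 and Il1rn), with 1 lower (Slpi) and a median of 1.77. In immature neutrophil-like cells 0 of 4 were 2-fold apart (median -0.05). Over all cells 3 of 7 were higher and 1 lower (median 0.14).

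Other genes of neutrophil granules and secretions were higher in some classes and lower in others. Ltf, the lactoferrin gene and itself a marker used to name immature neutrophils, was 2.01-fold lower over all cells (914 against 1835 CPM) and in mature neutrophil-like cells 3.76-fold higher (3084 against 820.2 CPM). Slpi, a secreted inhibitor of neutrophil proteases, was 2.54-fold higher in monocyte-like and 2.36-fold higher in GMP-like cells, and 2.74-fold lower in mature neutrophil-like cells. Mmp9, whose product binds lipocalin-2 as a complex, was 2.97-fold lower over all cells (127 against 378 CPM). Class shares differed between the libraries, so the values over all cells are not levels within a class.

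The cytokines that induce acute-phase genes were sparse. None of 11 reached 50 CPM over all cells. Il1b was at 102 CPM against 1.93 CPM in monocyte-like cells, a ratio of 52.9 (28.4 to 111), where it was the 1 gene of the list compared. In mature neutrophil-like cells, where 3 were compared and 1 was higher (Tnf, named after its values were seen; median -0.37), Il1b was at 292 against 378 CPM and Osm, the oncostatin M gene, at 78.9 against 125 CPM. Il6 had 8 UMIs in null-labelled and 0 in control-labelled monocyte-like cells.

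Of 13 cytokine receptors, 1 of the 5 compared over all cells was 2-fold higher and 1 lower (median 0.01). The higher was Il1r2, the decoy receptor of interleukin-1, at 259 against 21.3 CPM (ratio 12.2, 11.4 to 12.9), and it was 2-fold or more higher in each of the 4 classes. The lower was Csf3r, the G-CSF receptor, at 13.9 against 89.1 CPM, 6.43-fold lower, and 7.67-fold lower in mature neutrophil-like cells. Both are markers by which mature neutrophil-like cells were named, so they stood in opposite directions within 1 marker list. In monocyte-like cells 5 of 9 were lower (Ifngr1, Csf3r and, named after their values were seen, Il6ra, Il6st and Il17ra) and 1 higher, with a median of -1.43. Ifngr1, the ligand-binding chain of the interferon-gamma receptor, was 2.87-fold lower there and 2.55-fold lower in GMP-like cells. Counts of higher and lower genes were 1 and 1 of 3 in GMP-like (median 0.53), 1 and 1 of 5 in immature (0.60) and 2 and 1 of 8 in mature neutrophil-like cells (-0.03).

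Among 18 genes of signalling and transcription, 5 of the 9 compared over all cells were higher and 2 lower (median 1.05). Nfkbia, the NF-kB inhibitor that is itself a target of NF-kB, was at 379 against 128 CPM (ratio 2.96, 2.88 to 3.05) and between 3.11-fold and 5.57-fold higher in the 4 classes. The C/EBP factors stood apart from each other. Cebpb was 2.07-fold higher over all cells, 5.56-fold in immature and 2.78-fold in mature neutrophil-like cells, and 1.32-fold in monocyte-like cells, whereas Cebpd was 3.12-fold lower over all cells and 5.01-fold lower in monocyte-like cells. Counts by class were 3 higher and 1 lower of 9 in GMP-like (median 0.01), 4 and 2 of 9 in immature (0.79), 6 and 2 of 12 in mature neutrophil-like (0.92) and 5 and 2 of 12 in monocyte-like cells (0.60).

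Of 18 listed receptors and partners of the 5 proteins, 17 were in the files and few were compared. Fpr2, a formyl peptide receptor that binds serum amyloid A, was at 160 against 70.8 CPM over all cells, a ratio of 2.26 (2.17 to 2.35). It was 35.5-fold higher (27.8 to 46.0) in monocyte-like cells, where it stood at 458 against 12.9 CPM, and 91.4-fold higher in GMP-like cells. Over all cells 1 of 2 was higher and 1 lower, in GMP-like cells 1 of 1 higher, in immature neutrophil-like cells 2 of 3 higher (Fpr2 and, named after its values were seen, Fpr1), in mature ones 0 of 4, and in monocyte-like cells 2 of 4 higher and 2 lower.

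Markers of other possible sources of these transcripts were summed over their lists. The 10 hepatocyte markers summed to 1.10 CPM (null-labelled) and 0.491 CPM (control-labelled), with 7 and 8 of them at 0, and all 10 were at 0 in null-labelled monocyte-like and immature neutrophil-like cells. The null-labelled sum held 20 UMIs of Alb, the albumin gene. Markers of adipocytes and stroma summed to 14.5 and 22.7 CPM and those of endothelium to 22.0 and 18.3 CPM. The 8 macrophage markers summed to 53.0 and 175 CPM over all cells, and to 224 and 87.7 CPM in monocyte-like cells. Of the 8, C1qb, a complement C1q subunit, was at 111 against 5.97 CPM in monocyte-like cells (ratio 18.5, 12.8 to 27.7) and C1qc at 26.4 against 3.85 CPM, while Adgre1 was at 47.3 against 55.5 CPM and Cd5l was at 0 in the null-labelled class. The part of macrophage transcripts in the monocyte-like values was not tested.

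By the pattern over the 16 sums of 8 classes in 2 libraries, the genes most like each of the 5 were taken from 5500 genes with 50 CPM in at least 1 sum. These correlations of log2(CPM + 10) are descriptions over sums that share a library. For Saa3 they were Clic5 (r 0.97), Ly6i (0.94), Smpdl3b (0.93), Sod2 (0.90) and Parp12 (0.89), and for Orm1 Cldn1 (0.96), Tuba8 (0.95), Serpine2 (0.95), Plscr1 (0.92) and Stxbp5 (0.91). Lcn2 was followed by Dgat2 (0.99), Wfdc21 (0.96), Ebi3, Jdp2 and Mapk13 (each 0.95), and Lrg1 by Chil1 and Mapk13 (each 0.99), Dach1, Olfm4 (each 0.98) and Itgb2l (0.97). Hp was followed by Clec4a2, Clec5a and Ltb4r1 (each 0.99), Slpi (0.98) and App (0.97). Among the 5 genes themselves, Lcn2 and Hp were the most alike (0.92) and Saa3 and Lrg1 the least (0.32).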

How the data were processed

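Whole-number UMI counts per gene and cell barcode were deposited by the authors without normalization, 1 matrix per genotype. Cell Ranger 3.0, Seurat and genome build mm10 are named in the submitters' processing notes, and the software version is 3.1.0 per the file headers; the sources used here state no filter before deposit. Barcodes were kept with at least 200 genes and at most 10% mitochondrial UMIs (1307 and 3479 failed). Scrublet scores in scanpy 1.11.5 ranked doublets, and the top 0.8% per 1000 cells were removed (71 and 690). Cells were clustered jointly without integration (2000 variable genes, 30 components, 15 neighbours, Leiden resolution 1, clusters of 60 or more cells split at 0.5) and sub-clusters were named from markers of 19 classes. UMIs were summed per class and library and given as CPM; with 1 library per genotype there was no test. TMM factors came from edgeR 4.0.16. The calculations were tested on simulated data. Depth is 44694854 and 79192158 UMIs for all barcodes; its effect on shares of cells was checked by thinning to 1000 UMIs.

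The 5 genes and all lists were chosen with earlier results of these data known. Named genes are the 5, their paralogs, in each list the 2 of highest CPM and the 2 whose ratio bound lies farthest from 1, the 5 most alike to each gene by Pearson r, and class markers, of which 1 gene is not reported here. Of the feature identifiers, 31011 of 31053 were in GENCODE vM21. Alternatives were TMM scaling, the mean over cells, thinning, other cell filters, other class names and no CPM minimum.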

Additional observations from a re-analysis of the deposited data

Results flagged for a closer look

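Barcodes left out of all comparisons (under 200 genes, over 10% mitochondrial UMIs, or removed as doublets) carried Saa3 at 737 CPM in the null-labelled library, from 8248 UMIs in 1378 barcodes, against 0.793 CPM, from 16 UMIs in 4169 barcodes, in the control-labelled library. Of the 8248 UMIs, 7532 lay in the 71 barcodes removed as doublets, at 6264 CPM, and 66 in the 1202 barcodes with under 200 genes. Orm1 stood at 45.2 CPM against 12.6 CPM in the same barcodes, from 506 and 254 UMIs.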

How the results depend on the processing

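No paired analysis was possible because each genotype has 1 library. The number of the 5 genes at 2-fold or more was within 1.5 times its reported value in 62 of the combinations of class and alternative, among them 4 in place of 5 in GMP-like cells with per-cell marker names and with each library clustered on its own, and 4 in place of 3 in monocyte-like cells without doublet removal. It moved further in 2, both without doublet removal and both from genes lower in the null-labelled library: 1 in place of 0 in erythroid-like cells (Lcn2) and 2 in place of 0 in T-like cells (Lcn2 and Hp). The log2 ratio of Lrg1 in GMP-like cells reversed from 1.95 to -0.89 without mixed sub-clusters, an alternative chosen after seeing the data, and was 0.48 with per-cell marker names and 0.56 with each library clustered on its own. Of the other values in a class, 67 moved by more than counting error and 81 did not. Over all cells the log2 ratios ranged from 12.34 to 13.55 for Saa3, 3.91 to 4.23 for Orm1, 1.12 to 1.47 for Lcn2, -0.27 to 0.39 for Lrg1 and 0.18 to 1.05 for Hp. In GMP-like cells that of Orm1 ranged from 1.01 to 6.90. Without the CPM minimum, genes at 2-fold or more numbered 3468 in place of 541 over all cells, 2250 in place of 512 in GMP-like, 2235 in place of 475 in immature neutrophil-like, 2235 in place of 947 in mature neutrophil-like and 2783 in place of 1005 in monocyte-like cells. Against the pseudocount of 10, a pseudocount of 1 kept 2, 4, 2, 3 and 4 of the 5 nearest genes of Saa3, Orm1, Lcn2, Lrg1 and Hp. With the neutrophil stages merged, also chosen after seeing the data, 3 of the 5 genes were 2-fold higher. Of all 2137 genes compared there, 239 were 2-fold higher and 264 lower. Control-labelled Saa3 rests on 15 UMIs, which sets the width of its ratios.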
